A study of Mus musculus with 2 samples.

Results

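The chemokine and chemokine receptor genes of the mouse tongue were compared between the circumvallate papillae (CvP), the large taste papillae at the back of the tongue, and the tongue epithelium without papillae (Epi). Members were taken by gene symbol, as every row of the deposited RNA-sequencing table named as a numbered Ccl, Cxcl, Ccr or Cxcr gene or as *Cx3cl1*, *Cx3cr1*, *Xcl1* or *Xcr1*. The rule found 56 of the 18498 rows, with 51 distinct symbols, of which 37 rows were ligands and 19 were receptors. Both libraries came from C57BL/6J mice of 12 to 30 weeks, and RNA from 20 or more mice was pooled for each. No treatment was named for them. The study stated male sex for its PCR of the CvP and normal chow for its mice in general. There was 1 poly(A) RNA library per tissue, so replicates were absent and no p-value was calculated. Epithelium around the taste buds was part of the CvP sample, as the study stated for its PCR of this tissue.

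Chemokines are small secreted proteins that direct the movement of leukocytes along a concentration gradient. They are named by the spacing of their first cysteines (CC, CXC, C and CX3C), and most of their receptors couple to inhibitory G proteins. In epithelia they guide neutrophils, dendritic cells and lymphocytes towards the surface, and some of them are made by epithelial cells without inflammation.

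Levels were read as RPKM, the reads of a gene scaled by its listed length in kilobases and by 1000000 mapped reads. Where a pair of values is given for a gene, the CvP value stands first. The lowest values of the table gave 28385795 mapped reads for the CvP library and 27960244 for the Epi library. From these depths the reads of each gene were estimated, and the 95% limits given with each CvP/Epi ratio are exact Clopper-Pearson limits for counting error alone. Over the 10363 rows with an RPKM of at least 1 in both libraries the median ratio was 1.31 (log2 0.39), a shift against which the ratio of a single gene can be read. As a check of the labels, 10 of 10 taste cell genes were higher in the CvP, with a summed RPKM of 420.24 against 5.83. Of 8 keratin and cornified envelope genes, listed as keratinized epithelium, 7 were higher in the Epi. The most abundant were *Gnat3* (127.11 and 0.03), *Plcb2* (70.01 and 0.12) and *Entpd2* (54.83 and 4.53) among the former, and *Krt13* (17548.78 and 47814.69), *Krt4* (11800.96 and 22405.60) and *Rptn* (1468.22 and 5290.31) among the latter. In tissue RNA, fewer cells of a type and less RNA per cell cannot be told apart.

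Most chemokine and receptor genes were higher in the CvP library, as were most genes of any kind. The RPKM was higher there for 49 of the 56 rows, and for 13880 of all 18498 rows. It was lower for 5 member rows, and 2 rows were listed at 0 in both. The ligands summed to an RPKM of 219.73 in the CvP against 17.25 in the Epi, 12.7 times as much. The receptors summed to 20.51 against 4.67, which is 4.39 times as much. *Cxcl14* alone made up 51.6% of the summed ligand RPKM of the CvP and 9.10% of that of the Epi, and without it the ratio of the summed ligands was 6.79. In the Epi the leading ligand was *Ccl6*, with 38.0% of the sum.

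A mean RPKM over both libraries of at least 0.5 was reached by 25 of the 56 rows (24 symbols), and these are described singly. Of the 25 rows, 17 had a CvP/Epi ratio above 3 and 0 had an Epi/CvP ratio above 3. Over all 13083 rows past the same minimum, 16.0% had a CvP/Epi ratio above 3 and 1.96% the opposite. The CvP value was the higher one in 25 of 25 members, against 78.1% of all rows, and the Epi value was 0 in *Cxcl5*, *Cxcl3* and *Ccl20*, against 1.64%. A low row can reach the minimum through the CvP alone and must then differ, as must every row with an Epi RPKM of 0. The count of ratios above 3 was therefore also read by level. The counts of higher CvP values and of Epi values of 0, and the median below, were not, so this selection also enters them. A ratio above 3 was found in 11 of 18 members with a mean RPKM between 0.5 and 3 (34.5% of all such rows), in 4 of 5 between 3 and 10 (11.9%) and in 2 of 2 above 10 (5.13%). The median log2 ratio of the 25 rows, with 0.1 added to both values, was 2.53, against 0.51 over the 13083 rows. After division by the median ratio, 14 of the 25 members remained above 3 (12.3% of all rows) and 0 had the opposite ratio (3.07%). The pair of limits that the study set for candidate genes, a CvP RPKM above 10 and a ratio above 3, was met by 6 members. Of all rows, 435 (2.35%) met it when recomputed here. The study reported a larger number of genes under these limits, and the reason for the difference was not examined. The 6 members were *Cxcl14*, *Cxcl5*, *Cxcl17*, *Cxcr7*, *Cxcl3* and *Cx3cl1*.

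**Figure D1:**
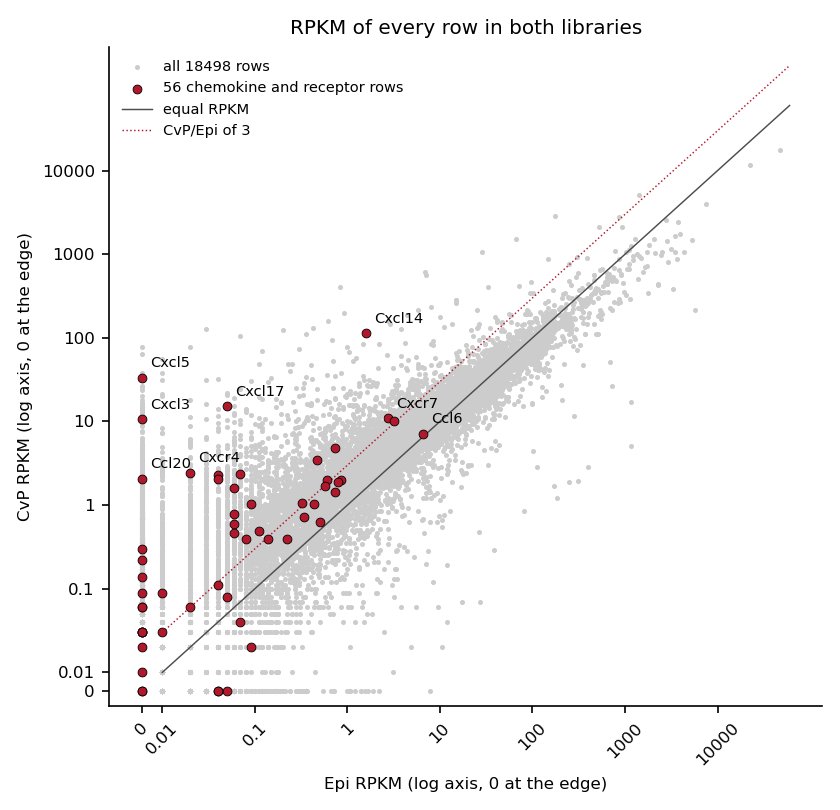
RPKM in the Epi library (x axis) and in the CvP library (y axis), both on log axes with values of 0 at the edge, for all 18498 rows (grey) and the 56 chemokine and receptor rows (red). Most red points lie above the line of equal RPKM, with *Cxcl14* the highest, *Cxcl5*, *Cxcl3* and *Ccl20* at an Epi RPKM of 0, and *Ccl6* close to the line.

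The neutrophil-attracting ligands, which bind the receptor CXCR2 and draw neutrophils out of the blood, were nearly absent from the Epi. All 4 members of this kind (*Cxcl1*, *Cxcl2*, *Cxcl3* and *Cxcl5*) had a ratio above 3. With an Epi RPKM of at most 0.04 they passed the minimum through the CvP alone, so such a ratio was fixed once they passed. The share was 16.0% of all rows past the minimum. It was 34.5% between a mean RPKM of 0.5 and 3, where *Cxcl1* and *Cxcl2* lie. Together these 4 summed to 48.47 in the CvP against 0.08 in the Epi. *Ppbp*, a further ligand of this kind that the symbol rule leaves out, is given with the neighbouring genes. *Cxcl5* had an RPKM of 33.50 (CvP) and 0 (Epi), about 1574 reads against none. Against a floor of 3 reads in the Epi it was 517-fold higher in the CvP, and the exact lower limit of its ratio was 420. Among 2207 rows with an Epi RPKM of 0, the CvP RPKM was at least as high as that of *Cxcl5* in only 4, *Cxcl5* included. *Cxcl3* had 10.61 (CvP) and 0 (Epi), 99.8-fold higher against the same floor, with an exact lower limit of 80.7. *Cxcl2* had 2.28 (CvP) and 0.04 (Epi), the latter 1 read, with a ratio of 57.0 (12.0 to 2761.8). *Cxcl1* had 2.08 (CvP) and 0.04 (Epi), also 1 read, with a ratio of 52.0 (9.50 to 2217.1). The CvP levels of these ligands thus differed widely, and in the Epi none exceeded 1 read. Of the windows of 75 bases in the *Cxcl3* transcript, 8.66% match that of *Cxcl2* with at most 2 mismatches, so a small part of their reads may have been counted for the other gene, whereas *Cxcl1* and *Cxcl5* share no such window.

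These ligands lie side by side on chromosome 5 of NCBI37/mm9, from *Cxcl5* (91188325 to 91190651) to *Cxcl2* (91332925 to 91334964), a span of 147 kb with all genes on the plus strand. Between them lie *Ppbp* and *Pf4*, ligand genes with other names that the symbol rule leaves out. *Ppbp*, which encodes a neutrophil-attracting chemokine best known from platelets, had an RPKM of 123.96 (CvP) and 0.20 (Epi) and a ratio of 619.8 (286 to 1701.0), and its CvP level was above that of any member. *Pf4*, the other platelet chemokine, had only 0.48 and 0.06, about 8 reads and 1 read. The genes on either side were mixed. *Rassf6* and *Afm*, before *Cxcl5*, had ratios of 5.17 (4.43 to 6.11) and 5.23 (2.55 to 12.2). Behind *Cxcl2*, *Mthfd2l* had a ratio of 1.40 (1.07 to 1.85), and the growth factor genes *Epgn* (0.48 and 26.24) and *Ereg* (15.03 and 41.73) were lower in the CvP. *Areg*, another growth factor gene, had 7.82 and 2.42 and a ratio of 3.23 (2.51 to 4.20).

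**Figure D2:**
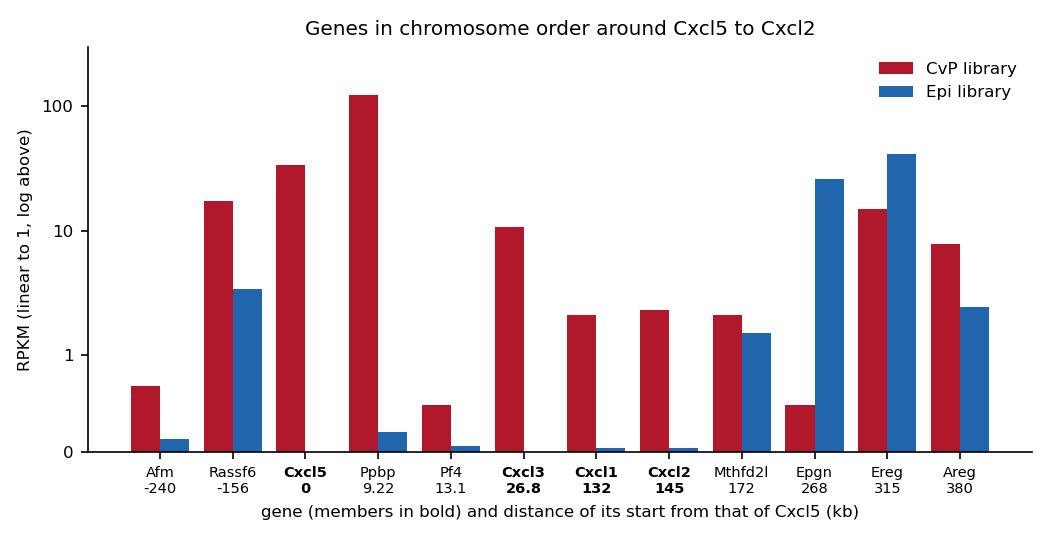
RPKM (y axis, linear up to 1 and logarithmic above) of neighbouring genes in chromosome order, with the distance of each start from that of *Cxcl5* in kb, in the CvP library (red) and the Epi library (blue); members are in bold. *Cxcl5*, *Ppbp*, *Cxcl3*, *Cxcl1* and *Cxcl2* have tall red bars and almost no blue bar, and *Epgn* and *Ereg* show the opposite order.

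The bases before the start sites of *Cxcl1*, *Cxcl2* and *Cxcl3* are shown, and *Cxcl5* had no promoter entry. NF-kappaB is a transcription factor that induces many chemokine genes in inflammation, and its consensus motif was searched on both strands of the 250 bases before each RefSeq start site (GRCm38.p6). Of the 51 member symbols, 36 had a promoter entry and 8 of these held the motif, namely *Ccl20*, *Ccl9*, *Ccr3*, *Ccr6*, *Cxcl1*, *Cxcl10*, *Cxcl2* and *Cxcl3*. *Cxcl14*, the highest member, had an entry without the motif in this window. Over all 27025 genes with an entry, 4.46% held it. A match describes letters and is not a bound site, and its part in the differences between the tissues was not tested. Shown are the 110 bases that end just before the start site, on the plus strand with the motif in capitals, at chr5:90891135-90891244 for *Cxcl1*, chr5:90903789-90903898 for *Cxcl2*, chr5:90785991-90786100 for *Cxcl3* and chr1:83116656-83116765 for *Ccl20*, a ligand that was likewise at 0 in the Epi.
Cxcl1: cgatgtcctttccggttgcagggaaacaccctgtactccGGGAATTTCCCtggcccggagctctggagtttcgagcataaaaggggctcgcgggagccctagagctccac
Cxcl2: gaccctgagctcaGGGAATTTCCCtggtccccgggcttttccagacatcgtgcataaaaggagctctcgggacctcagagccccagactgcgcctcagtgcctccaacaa
Cxcl3: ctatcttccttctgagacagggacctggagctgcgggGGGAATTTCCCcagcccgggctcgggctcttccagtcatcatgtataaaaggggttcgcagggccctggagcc
Ccl20: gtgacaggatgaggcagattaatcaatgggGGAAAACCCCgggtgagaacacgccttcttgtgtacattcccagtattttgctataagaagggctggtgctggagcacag
The same capital letters stand in these 3 *Cxcl* promoters, at -71 to -61 in *Cxcl1*, -97 to -87 in *Cxcl2* and -73 to -63 in *Cxcl3* counted from the start site, each holding 2 overlapping matches. In *Ccl20* the 1 match lies at -80 to -71. *Ccl9* (ratio 26.5), whose bases are not shown, holds 1 match at -35 to -26.

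*Cxcl10* also holds the motif, at 2 places within -159 to -94, and is shown as a member whose ratio was not above 3. Its 170 bases, on the minus strand of chr5:92348890-92349059, read as follows.
Cxcl10: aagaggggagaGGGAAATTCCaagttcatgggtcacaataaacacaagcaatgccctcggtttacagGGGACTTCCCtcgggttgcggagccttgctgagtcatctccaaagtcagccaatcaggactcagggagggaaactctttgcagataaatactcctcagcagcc
The interferon-inducible ligands *Cxcl9*, *Cxcl10* and *Cxcl11* bind CXCR3 on activated T cells. Of the 2 past the minimum, 0 had a ratio above 3, against 16.0% of all rows past it. Between a mean RPKM of 0.5 and 3, where both lie, the share was 34.5%. *Cxcl10* had an RPKM of 1.99 (CvP) and 0.85 (Epi), with a ratio of 2.34 (1.46 to 3.94). *Cxcl9* had 1.02 (CvP) and 0.44 (Epi), with a ratio of 2.32 (1.54 to 3.50). Both intervals lie above the median ratio of 1.31. *Cxcl11* had about 1 CvP read and 4 Epi reads. Exons of *Cxcl10* share 133 bases with the antisense gene *Art3*, and those of *Cxcl11* share 1582 of 3794 bases with the antisense gene *Gm2673*. The counting was not stated to use strand.

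Of the other CXC ligands, *Cxcl14* and *Cxcl17* were abundant in the CvP. *Cxcl14*, on chromosome 13 (minus strand, 56390006 to 56397912), encodes a chemokine that many epithelia make without stimulation. Its RPKM was 113.28 (CvP) and 1.57 (Epi) and its ratio 72.2 (57.9 to 91.2), and it was number 373 of all rows by CvP RPKM. The listed length of this row, 5.423 kb, is 2.98 times that of its longest coding transcript in GENCODE M1 (1.823 kb). The RPKM rests on the listed length and the limits above on the shorter one. With reads from the listed length the limits were 63.5 to 82.4. *Cxcl17*, on chromosome 7 from 26185072 to 26197905, encodes a mucosal chemokine. It had 15.31 (CvP) and 0.05 (Epi), about 330 reads and 1 read, with a ratio of 306 (57.9 to 12877.3). *Cxcl16*, a membrane-bound ligand of CXCR6 that can be shed, had 4.76 (CvP) and 0.74 (Epi), with a ratio of 6.43 (4.75 to 8.76) that lies below both others. Its exons share 552 of 3021 bases with the antisense gene *Zmynd15*. *Cxcl12*, the stromal ligand of CXCR4 and CXCR7, was near 0 in both libraries, at 0.08 and 0.05 (ratio 1.60, 0.615 to 4.46).

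**Figure D3:**
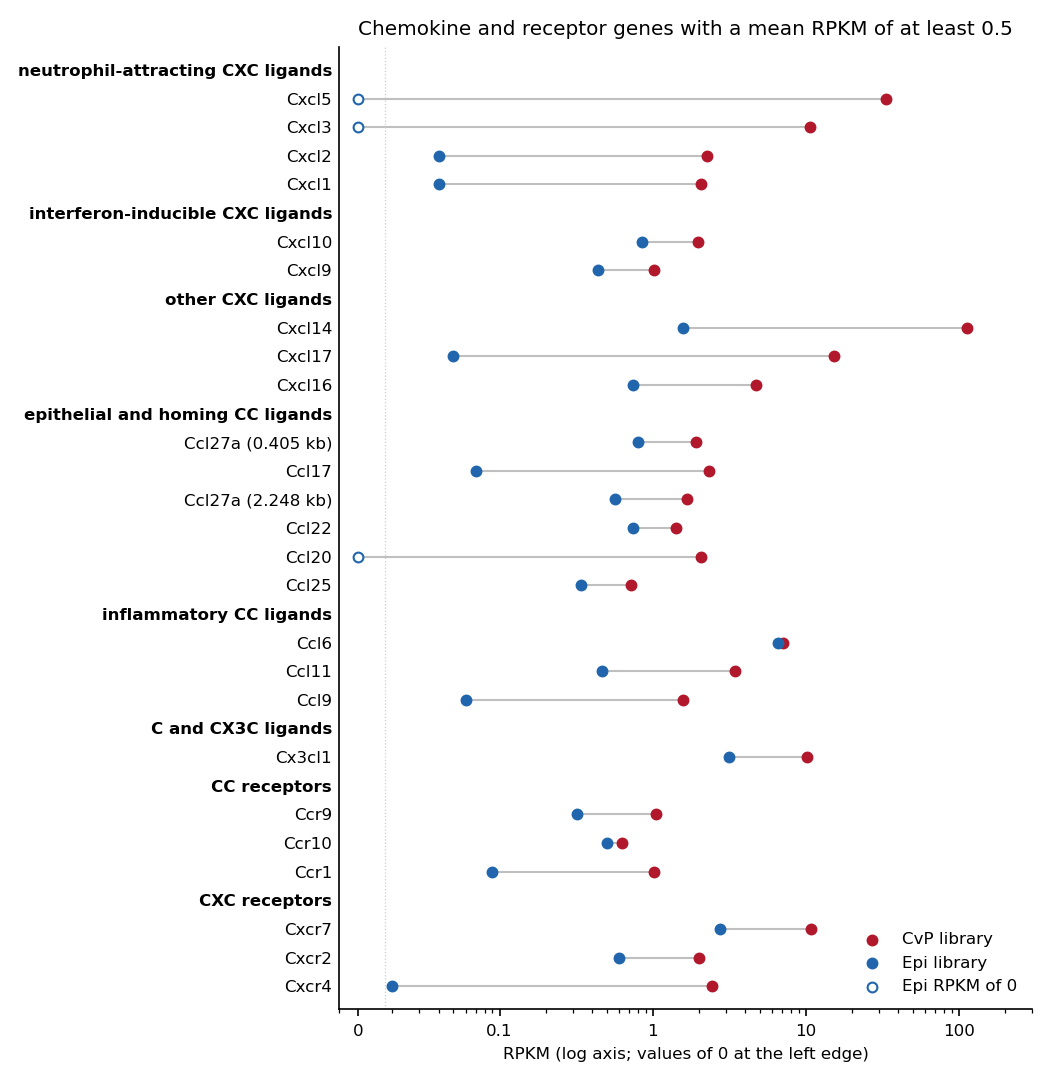
RPKM (x axis, log scale, values of 0 at the left edge) of the 25 rows with a mean RPKM of at least 0.5, grouped by role, in the CvP library (red) and the Epi library (blue; open where the RPKM is 0). Every red point lies to the right of its blue point, and the pairs of *Ccl6* and *Ccr10* are the closest.

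Among the epithelial and homing CC ligands, 2 of the 6 rows past the minimum had a ratio above 3, *Ccl20* and *Ccl17*. The share over all rows past the minimum was 16.0%. Between a mean RPKM of 0.5 and 3, where all 6 rows lie, it was 34.5%, close to that of this group. *Ccl20*, which attracts CCR6-bearing dendritic cells and lymphocytes to mucosal epithelium, had an RPKM of 2.07 (CvP) and 0 (Epi). It was 15.5-fold higher against the floor, with an exact lower limit of 12.1. *Ccl17*, a ligand of CCR4 on skin-homing T cells, had 2.33 (CvP) and 0.07 (Epi), about 34 reads and 1 read, with a ratio of 33.3 (5.62 to 1361.2). *Ccl22*, the other CCR4 ligand, had 1.42 (CvP) and 0.74 (Epi), with a ratio of 1.92 (1.29 to 2.97) whose upper limit is below the lower limit of *Ccl17*. *Ccl22*, *Cx3cl1* and *Ccl17* are neighbours on chromosome 8 (97269584 to 97335936), with ratios of 1.92, 3.21 and 33.3 in that order. *Ccl27a*, a keratinocyte ligand of CCR10, had 2 overlapping rows. The row of 0.405 kb had 1.91 (CvP) and 0.80 (Epi), with a ratio of 2.39 (1.07 to 5.94), and that of 2.248 kb had 1.67 (CvP) and 0.57 (Epi), with a ratio of 2.93 (1.58 to 5.86). Since 52.2% of its windows match *Ccl27b* and related copies, the counting may have split its reads among them. *Ccl25*, the ligand of CCR9 and the member just above the minimum, had 0.72 (CvP) and 0.34 (Epi), with a ratio of 2.12 (0.965 to 4.68) whose interval includes 1. The lymph node ligands *Ccl19* and *Ccl21a*, whose transcripts have near-identical copies, had at most 1 read per row, and *Ccl1* was listed at 0 in both libraries.

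The inflammatory CC ligands, which draw monocytes, macrophages and eosinophils, were uneven. *Ccl6*, a ligand that mouse myeloid cells make, was the most abundant CC ligand in both libraries, at an RPKM of 7.12 (CvP) and 6.56 (Epi). Its ratio was 1.09 (0.916 to 1.29), below the median of all rows, and 0.827 when divided by it. *Ccl9*, a related gene beside it on chromosome 11, had 1.59 (CvP) and 0.06 (Epi), about 136 and 5 reads, with a ratio of 26.5 (11.2 to 83.8). The intervals of these neighbours do not overlap. *Ccl11* (eotaxin, which attracts eosinophils through CCR3) had 3.45 (CvP) and 0.47 (Epi), with a ratio of 7.34 (4.21 to 14.0). The other 7 rows of this group were below the minimum, with a highest CvP RPKM of 0.59 for *Ccl4*. All 10 were higher in the CvP, as were 13880 of all 18498 rows and 67.6% of those below the minimum. *Ccl12* and *Ccl24* rested on 1 read against 0, and the intervals of *Ccl2*, *Ccl3*, *Ccl5* and *Ccl7* included 1. *Cx3cl1* (fractalkine, a membrane-bound ligand that also acts in adhesion) had 10.14 (CvP) and 3.16 (Epi), with a ratio of 3.21 (2.81 to 3.67). That interval includes 3, and the ratio was 2.44 when divided by the median. It was the member just above a ratio of 3, and the longer row of *Ccl27a* the one just below. *Xcl1*, the C ligand of lymphocytes, had 2 CvP reads and 0 Epi reads.

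**Figure D4:**
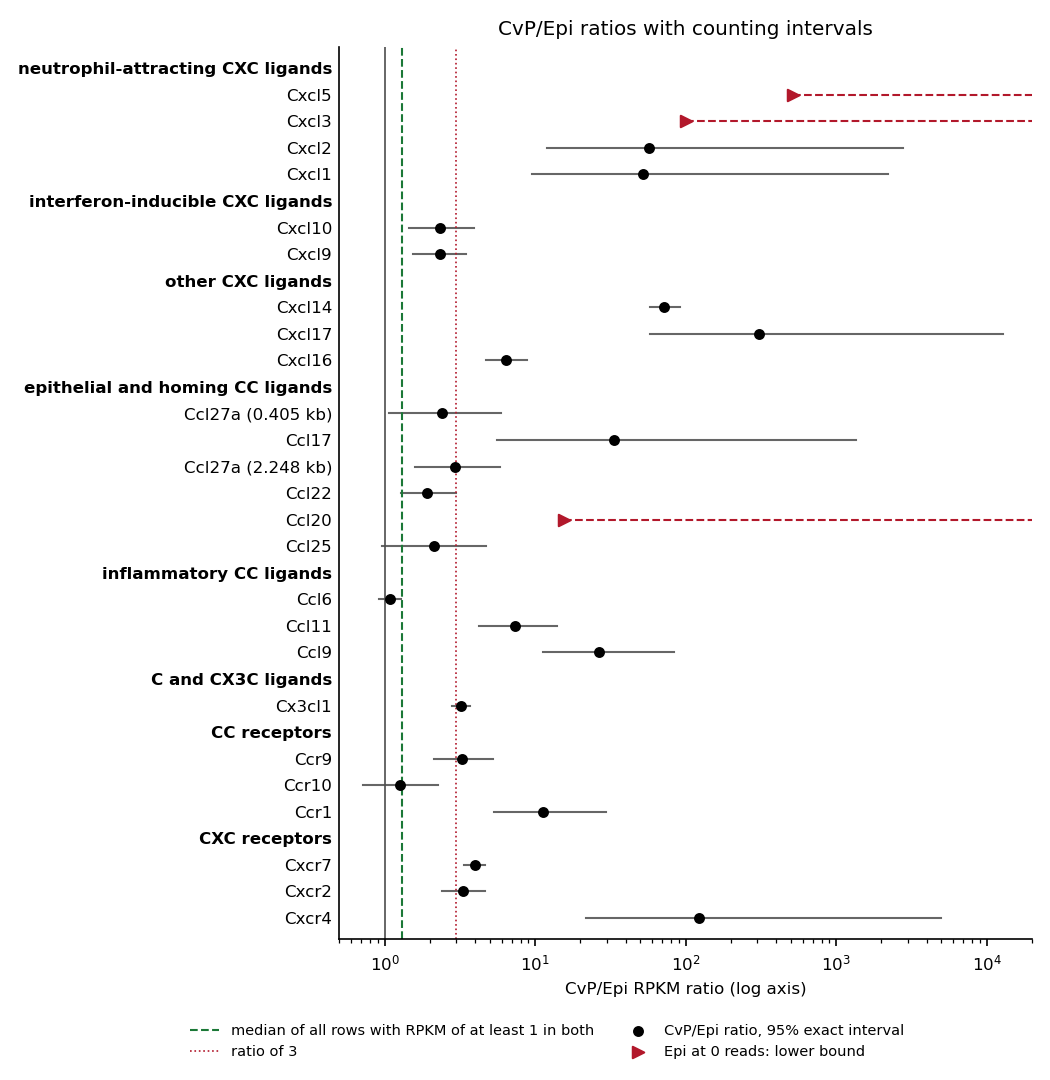
CvP/Epi RPKM ratio (x axis, log scale) of the same 25 rows with 95% exact intervals for counting error alone. For genes with 0 reads in the Epi, arrowheads (labelled as lower bounds) mark the fold against a floor of 3 Epi reads, which lies above the exact lower limit. The dashed green line marks the median of all rows (1.31) and the dotted line a ratio of 3. The intervals of *Ccl6*, *Ccr10* and *Ccl25* include 1, and those resting on 1 Epi read are the widest.

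Of the 19 receptors, 6 reached the minimum and 5 of these had a ratio above 3, against 16.0% of all rows past it. All of the 6 but *Cxcr7* had a mean RPKM between 0.5 and 3, where 34.5% of all rows had such a ratio. *Cxcr7*, an atypical receptor that takes up CXCL12, was the highest receptor in both libraries, at an RPKM of 10.88 (CvP) and 2.74 (Epi) with a ratio of 3.97 (3.39 to 4.65). It made up 53.0% of the summed receptor RPKM of the CvP and 58.7% of that of the Epi. *Cxcr4*, the signalling CXCL12 receptor of leukocytes and many progenitor cells, had 2.45 (CvP) and 0.02 (Epi), about 126 reads and 1 read, with a ratio of 123 (21.9 to 4940.5) whose interval lies above that of *Cxcr7*. *Cxcr2*, the receptor of the neutrophil-attracting ligands, had 2.0 (CvP) and 0.60 (Epi), with a ratio of 3.33 (2.42 to 4.64). *Ccr1*, a receptor of monocytes and neutrophils for several inflammatory CC ligands, had 1.02 (CvP) and 0.09 (Epi), with a ratio of 11.3 (5.36 to 29.6). *Ccr9*, the gut-homing receptor, had 1.05 (CvP) and 0.32 (Epi), with a ratio of 3.28 (2.12 to 5.25). *Ccr10*, the receptor of CCL27, had 0.63 (CvP) and 0.50 (Epi), and its ratio of 1.26 (0.723 to 2.27) showed no difference detectable at this depth. Divided by the median of all rows, *Cxcr2* and *Ccr9* fell under 3, at 2.54 and 2.50, and *Cxcr7* was at 3.03, so that 3 of the 6 receptors remained above 3.

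The other 13 receptors were below the minimum. *Cx3cr1*, the fractalkine receptor of macrophages, was the member just under it, at 0.79 (CvP) and 0.06 (Epi) with a ratio of 13.2 (6.08 to 38.6). *Ccr2*, a receptor of monocytes, had 0.39 and 0.08, about 40 and 8 reads, with a ratio of 4.88 (2.27 to 12.2). *Xcr1*, a receptor of cross-presenting dendritic cells, was the only receptor with a lower value in the CvP, at 0.04 and 0.07, about 5 and 9 reads, with a ratio of 0.571 (0.144 to 1.82) that includes 1. Among the 31 member rows below the minimum, 24 were higher and 5 lower in the CvP, against 67.6% higher of all rows below it. Of these, 17 had 3 or fewer reads in both libraries, and no fold is given for them.

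Ligands and receptors that bind each other were set side by side, with the pairs chosen after their values were seen. The 4 member ligands of CXCR2 summed to 48.47 in the CvP, where *Cxcr2* was at 2.0, and to 0.08 in the Epi, where *Cxcr2* was at 0.60. With *Ppbp* the sums were 172.43 and 0.28, and the receptor was still the higher one in the Epi. *Ccl20* had 47 reads in the CvP and its receptor gene *Ccr6* 1, and both were at 0 in the Epi. *Ccl17* and *Ccl22* stood beside a *Ccr4* of 0.09 and 0.01, and *Ccl11* beside a *Ccr3* of 0.01 and 0, so the receptors were near 0 in both tissues. *Cxcl16* and *Cx3cl1* exceeded their receptor genes in both libraries, with *Cxcr6* at 0.49 and 0.11. The reverse order was found for *Cxcl12*, at 0.08 in the CvP against 2.45 for *Cxcr4* and 10.88 for *Cxcr7*.

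Genes of the same pathway outside the symbol rule were taken from 3 lists. Their counts can be read against all rows past the minimum, of which 16.0% had a ratio above 3 and 1.96% the opposite. Between a mean RPKM of 0.5 and 3 the share with a ratio above 3 was 34.5%. Of 23 genes of receptor signalling, 16 reached the minimum, 8 of these had a ratio above 3 and 0 the opposite. The most abundant were *Cdc42*, *Rac1* and *Gnai3*, which serve most cell types, with ratios of 1.20, 1.22 and 0.651. *Vav1*, an exchange factor of blood cells, had 4.35 and 0.17 (ratio 25.6, 16.6 to 43.9), and *Rgs2*, which dampens G protein signals, had 10.05 and 0.28 (ratio 35.9, 23.5 to 55.3). Of 23 cytokine and NF-kappaB genes with a row, 20 reached the minimum, 6 had a ratio above 3 and 1 the opposite. *Tnf*, a cytokine that induces many chemokines, had 2.70 and 0.05, about 124 and 2 reads (ratio 54.0, 16.6 to 509.9), and *Il1b*, another, had 8.31 and 1.11 (ratio 7.49, 5.43 to 10.6). *Il1a* had 70.60 and 19.65, a ratio of 3.59 (3.36 to 3.84) that was 2.74 when divided by the median. *Il1f6* (interleukin 36 alpha) was the gene with the opposite ratio, at 80.36 and 271.93. *Tnfrsf1a*, a receptor of TNF, had a ratio of 0.894, and *Nfkbia*, an inhibitor of NF-kappaB, of 1.01. Of 11 atypical receptors and relatives with a row, 6 reached the minimum and 3 had a ratio above 3, *Ppbp*, *Cmtm4* and *Cmtm7*. *Cmtm6* and *Cmtm8*, next to *Ppbp* by level, had ratios of 1.09 (1.04 to 1.14) and 0.847 (0.744 to 0.962). *Vav1*, *Rgs2*, *Tnf*, *Il1b*, *Nfkbia*, *Cmtm4* and *Cmtm7* were named after their values were seen.

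Markers of leukocytes and other cells were examined in the same libraries, and their part in the chemokine differences was not tested. Counts of markers higher in the CvP can be read against the 13880 of 18498 rows that were higher there. Those with a ratio above 3 can be read against 16.0% of all rows past the minimum, and 34.5% between a mean RPKM of 0.5 and 3. All 11 macrophage markers with a row were higher in the CvP, with a summed RPKM of 58.15 against 8.85, and 7 of the 8 past the minimum had a ratio above 3. *Cd14* had 20.41 and 0.94, *Cd68* 10.81 and 4.45 and *C1qb* 6.08 and 0.57. Of 10 Langerhans and dendritic cell markers 9 were higher in the CvP, summing to 287.34 against 65.98, of which *Epcam*, also made by other epithelial cells, gave 145.83 and 13.39. *Cd74* and *H2-Ab1*, of the antigen-presenting pathway, had 60.56 and 19.90 and 30.52 and 13.64. *Cd207* (langerin), the defining Langerhans cell gene, was the exception, at 0.85 and 1.33. Neutrophil markers were low, with a sum of 2.70 against 0.04. *Csf3r* had 2.20 and 0.01, the highest of the other 5 were *Retnlg* at 0.29 and 0 and *Camp* at 0.12 and 0, and *Elane* was listed at 0 in both. Of 12 T and NK cell markers 9 were higher in the CvP, about the share of all rows, and their sum was 10.61 against 11.35, most of it from *Cd5* (6.90 and 9.65) and *Cd247* (2.69 and 1.36), and the defining genes *Cd3d*, *Cd3e* and *Cd3g* were at or below 0.24 in both libraries.

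**Figure D5:**
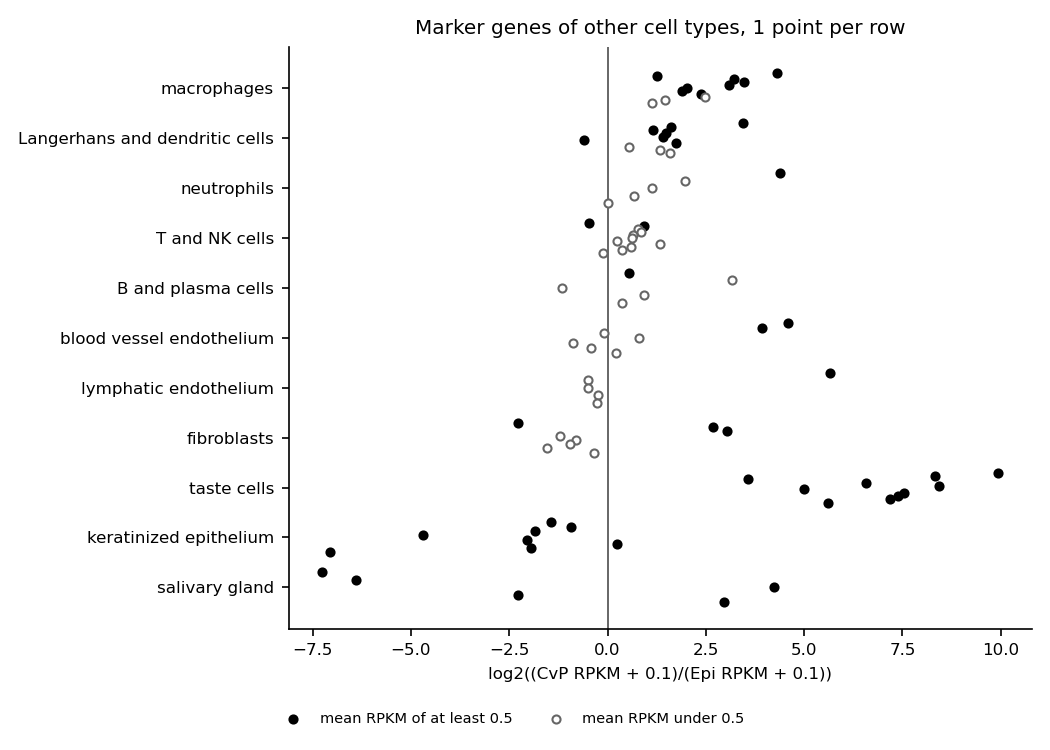
log2 ratio of CvP to Epi with 0.1 added to both RPKM values (x axis) for the marker genes of 11 cell types, 1 point per row, filled where the mean RPKM is at least 0.5; genes at 0 in both libraries are left out. All 11 macrophage points lie to the right of 0, those of T and NK cells lie on both sides, and 7 of 8 points labelled keratinized epithelium lie to the left.

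Of 5 B and plasma cell markers with a row, 4 were higher in the CvP, with *Sdc1*, which keratinocytes also express, at 204.09 and 140.09, while *Cd79b* was at 0.80 and 0. Blood vessel markers were higher in the CvP for 4 of 7, with *Vwf* at 4.45 and 0.09 and *Tek* at 2.49 and 0.07, while *Esam* was at 0.25 and 0.27, *Cdh5* at 0.02 and 0.06 and *Kdr* at 0.04 and 0.02. Of 5 rows of lymphatic markers 1 was higher in the CvP, *Prox1* at 5.91 and 0.02, and 2 of the rows were those of *Ccl21a*, itself a member. Fibroblast markers were higher in the CvP for 2 of 8, *Fbln1* (18.54 and 2.79) and *Pdgfra* (1.30 and 0.07), while *Dcn* was at 26.07 and 127.62 and *Col1a1* at 0.06 and 0.18. Of 5 salivary gland genes with a row 2 were higher in the CvP, *Pigr* (12.01 and 0.54) and *Aqp5* (6.09 and 0.69), and the secreted enzyme genes *Lipf* and *Amy1* were at 1.96 and 313.42 and 0.85 and 80.48.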

How the data were processed

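Tongue RNA of the CvP and the Epi was sequenced by the study as 1 pooled library each. The authors mapped single-end reads with Bowtie 0.12.7 to NCBI37/mm9 and deposited RPKM values, which ERANGE gave on an exon model per gene. Its version, options and treatment of multiply matching reads are not given in the sources used here. A column with the authors' own ratio was not used.

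Ratios were recomputed from the RPKM values. Depth came from the step between RPKM values in 163 rows of 0.1 kb. Reads were estimated with the listed length or, where shorter, that of the longest GENCODE M1 coding transcript. With the listed length, 41 of 49 member values of 1 to 20 reads were whole within the rounding of RPKM. Members with a mean RPKM of at least 0.5 were named, with the 3 highest of each list by mean RPKM, except where a gene is not reported here. Other members and list genes, such as defining markers and members below the minimum, were named after their values were seen. A floor of 3 reads was used where the Epi was at 0, and a pseudocount of 0.1 for medians. The calculations were tested on simulated data. Promoters came from RefSeq (GRCm38.p6), and their positions are not those of NCBI37/mm9.

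The members and lists were chosen with earlier results of these data known. Alternatives were other pseudocounts, minimums, folds, scalings and row choices. Python 3.11.15, numpy 2.4.6, pandas 2.3.3, scipy 1.17.1 and matplotlib 3.10.9 were used.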

Additional observations from a re-analysis of the deposited data

How the results depend on the processing

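No paired analysis was possible because 1 pooled library stands for each tissue, and no replicate could be left out for the same reason. The number of members with a CvP/Epi ratio above 3, which was 17, became 11 with a pseudocount of 1 and 35 with no minimum on RPKM, where many added rows had 3 or fewer reads in both libraries. It ran from 13 to 22 under the other alternatives. Among the alternatives, a share over all rows was calculated only for division by the median ratio, where 14 members (12.3% of all rows) remained above 3. The other counts have no such share beside them, so they do not show whether the members differ from all rows. The number with the opposite ratio, which was 0, became 4 with no minimum, each a row with at most 1 read in the CvP. The median log2 ratio of 2.53 became 1.42 with a pseudocount of 1 and 1.09 with no minimum. The ratio of the summed ligands, 12.7, became 9.70 on division by the median ratio, 15.4 when each library was scaled to 1000000 and 6.79 without *Cxcl14*. The ratio of the summed receptors, 4.39, became 3.35 and 5.30 under these scalings and 4.99 without *Cxcr7*. Of the 25 single ratios, 18 left their intervals with a pseudocount of 1, 7 on division by the median and 3 on scaling to a common sum. *Ccl6* was at 1.09, at 0.827 on division by the median and at 1.31 on scaling to a common sum. Depth limits the genes with 1 Epi read, whose upper limits are very wide.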
